A study of Mus musculus with 162 samples.

Results

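Keratins are the proteins of the intermediate filaments of epithelial cells, and 54 of the 53686 genes in the count table were taken as keratin genes because their symbol had the form Krt, a number and at most 1 further letter. Each filament pairs a type I chain with a type II chain, and the chains an epithelium makes change with its kind and with the layer of its cells. The simple chains, Krt8 and Krt18 among them, mark epithelia of a single layer such as glands, ducts and liver. Krt5 and Krt14 mark the basal layer of stratified epithelia, Krt1 and Krt10 the cornifying layers above it, and Krt4 and Krt13 the upper layers of moist stratified linings, while Krt6a, Krt6b, Krt16 and Krt17 appear in hair follicle sheaths and in wounded epithelium. The mouse stomach joins a forestomach with a cornified squamous lining to a glandular part, and posterior-subcutaneous fat lies against the skin.

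The libraries came from RNA sequencing of 9 organs in male C57BL/6J mice, 8 to 9 weeks old, without food for 2, 8, 12, 18 or 22 h or fed ad libitum (0 h), with 3 mice at each time. Each of the 18 mice gave all 9 organs, which were the olfactory bulb (OB), brain (BRN), cerebellum (CBL), brainstem (BST), stomach (STM), liver (LIV), interscapular brown fat (iBAT), perigonadal white fat (pgWAT) and posterior-subcutaneous white fat (psWAT). The sample titles give a replicate number and no mouse, and libraries of the same time and number were taken as from 1 mouse. The libraries that the study left out were also left out here. They were 5, namely BRN 8 h replicate 3 and 18 h replicate 1, STM 12 h replicate 3, iBAT 22 h replicate 1 and psWAT 22 h replicate 2. All others held 3045845 to 27801717 counts, and the 5 held 130701, 279848, 4590060.0, 2700482 and 2944552 in that order. The 17 STM libraries kept held 6851903 to 13769280.0 counts, and the 17 of psWAT 4099281 to 9802381. Levels below are counts scaled to the library's total (CPM), given over all 18 libraries of an organ unless said otherwise, as mean ± SD. A count of 3 or fewer was taken as the floor of a library, which was 0.306 to 0.732 CPM in the psWAT libraries kept and covers counting error only.

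Several libraries stood apart before any keratin was compared. In psWAT 12 h replicate 3, 6 genes of cerebellar neurons summed to 4197 CPM, against a median of 3.35 CPM over the organ. In pgWAT, 8 genes of the epididymis, the duct beside the testis, had a median sum of 11.99 CPM but reached 28618 CPM in 22 h replicate 2, 23471 CPM in 18 h replicate 3 and 3395 CPM in 2 h replicate 2. STM 18 h replicates 1 and 3 were closer to each other, at a mean chi-square of 4.77 per gene, than any other pair of STM libraries (next 14.5, median 76.2), and LIV 0 h replicates 1 and 2 were at 2.27 against 10.8 for the next pair. The files do not settle whether such a pair came from 1 sample, and both libraries are counted below as separate mice, as labelled. The labels put the STM libraries of 0 h, 2 h and 8 h replicates 1 and 2 on lane 5 of the sequencer and all later ones on lane 6.

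The organ names were compared with marker genes. In STM all 13 genes of stomach glands had a mean of at least 1 CPM and summed to a lowest of 89903, a median of 201348 and a highest of 299546 CPM, with Pgc, a pepsinogen, as the most abundant (126541 CPM). In psWAT all 6 adipocyte genes had a mean of at least 1 CPM, and their sum ran from 438 over a median of 4022 to 26964 CPM with Fabp4 at the top (5117 CPM). The same psWAT libraries held 6 of 6 skeletal muscle genes, from 17.4 over 826 to 34573 CPM (Acta1, 1195 CPM). Of 12 cornification genes 2 reached a mean of 1 CPM there, Cdsn (24.3 CPM) and Asprv1 (10.9 CPM), while Flg had no count in any psWAT library, and Lor had a mean of 0.609 CPM with its highest value, 8.63 CPM, in 8 h replicate 2. The keratin levels of psWAT are named here by organ.

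The 54 genes lay in a pair of clusters of 27, on chr11:99232761-100269871 (type I chains, Krt222 to Krt42) and on chr15:101347444-102032027 (type II from Krt80 onward, with the type I gene Krt18 at its end), in the GRCm38 annotation. All had at least 1 count in some library, yet 9 never passed 3 counts in a library and 29 never reached 10 CPM in one. Exons of 31 of them shared stretches of 50 bases with another gene, and in 15 at least 10% of the stretches were shared, among them Krt6a (45.7%, mostly with Krt6b), Krt6b (50.1%), Krt16 (37.6%, mostly with Gm11597), Krt8 (26.9%, with Krt8-ps) and Krt14 (13.9%, mostly with Krt16). Counts of these genes could lose or exchange reads with their partners, which was not tested. Exons of 12 keratin genes overlapped a gene on the other strand (Krt10 among them), and the strand setting of the counting was not stated.

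Across the organs, 19 keratin genes had a mean of at least 10 CPM in some organ, 9 peaked at 1 to 10 CPM and 26 stayed under 1 CPM in all 9. Of the 28 that reached a mean of 1 CPM in some organ, STM held the highest mean of 20, BRN of 4, CBL of 2 and BST and pgWAT of 1 each, whereas OB, LIV, iBAT and psWAT held none. In STM, 15 genes had a mean of at least 10 CPM, and in psWAT 1. Summed over all keratin genes, STM libraries held 3552 to 15875 CPM (median 9347), LIV libraries 331 to 477 CPM, pgWAT libraries 64.2 to 1013 CPM, iBAT libraries 16.7 to 47.04 CPM and psWAT libraries 12.5 to 468 CPM (median 23.5). The lowest STM library lay above the highest library of every other organ.

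**Figure D1:**
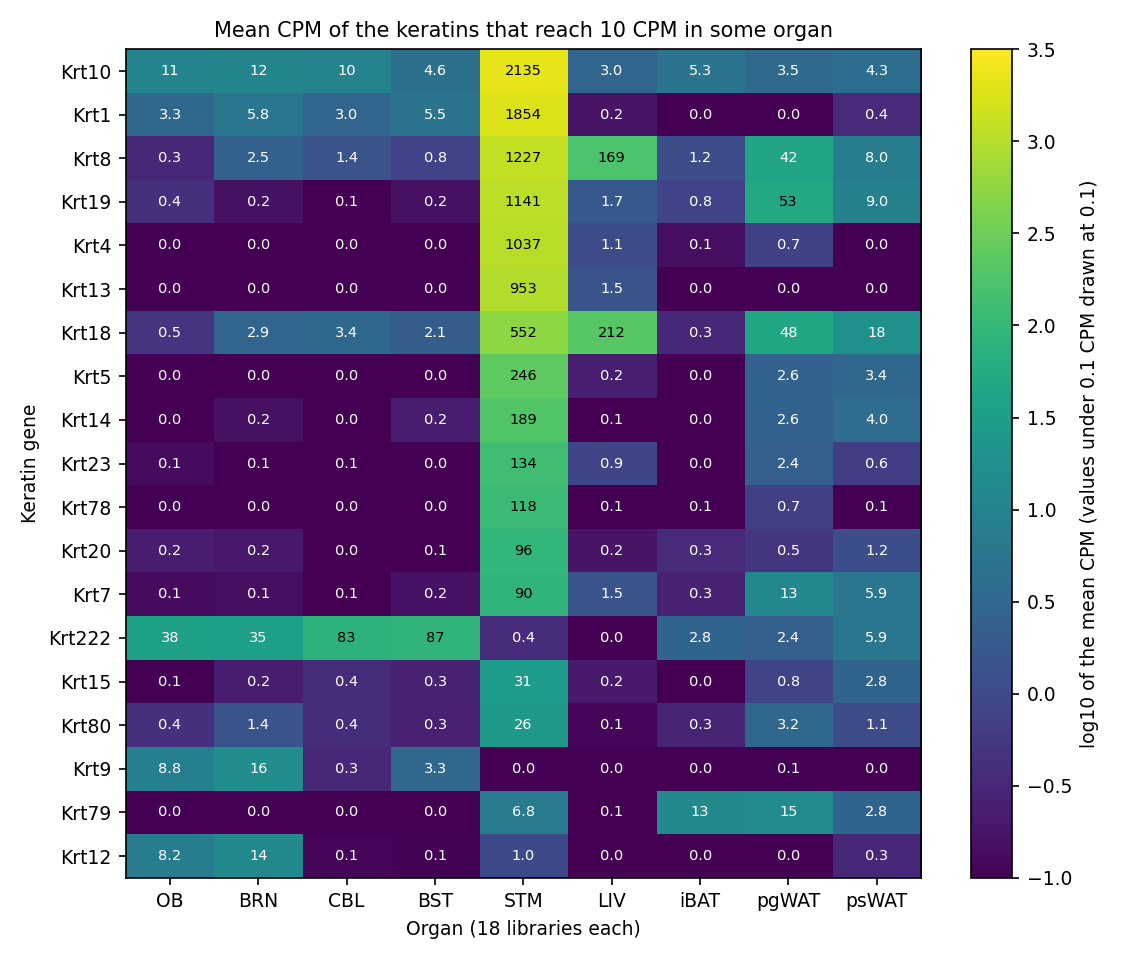
Mean level over 18 libraries, in CPM on a log scale, of the 19 keratin genes that reached a mean of 10 CPM in some organ, with a column for each of the 9 organs. Krt10, at 2135 CPM in STM, was the highest value of the plot, and Krt222 was highest in BST at 87.2 CPM.

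The shares of the keratin sum differed by organ. In STM the 6 simple chains took 40.5 ± 24.001% (lowest 11.9%, highest 87.4%), the chains of upper epidermis 35.1 ± 16.7%, those of upper mucosal layers 19.5 ± 5.84% and the basal chains 4.24 ± 1.99%. Simple chains made up 98.3 ± 2.08% in LIV and 73.4 ± 12.2% in pgWAT. In psWAT their share was 29.9 ± 23.4%, and chains outside these classes, Krt222 and Krt79 above all, took 33.4 ± 17.8%.

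Among the simple chains of the stomach, Krt8 (ENSMUSG00000049382, chr15:101996698-102004482), the type II chain of simple epithelia, stood at 1948, 1407 and 1851 CPM at 0 h, 1662, 1144 and 1278 CPM at 2 h and 1526, 841 and 1015 CPM at 8 h, with the replicates in order. It then stood at 1121, 1345 and 1127 CPM at 12 h, 604, 1869 and 578 CPM at 18 h and 1536, 603 and 631 CPM at 22 h. The lowest values, at 18 h replicates 1 and 3 and 22 h replicates 2 and 3, lay beside high ones in the same groups, so that the times overlapped. Krt19 (ENSMUSG00000020911, chr11:100140810-100148665), a type I partner of Krt8, stood at 1803, 1400.4 and 1489 CPM at 0 h, 1505, 1182 and 1377 CPM at 2 h and 1378, 786 and 887 CPM at 8 h. Later values were 1014, 1288 and 979 CPM at 12 h, 571, 1714 and 528 CPM at 18 h and 1482, 555 and 604 CPM at 22 h, high and low in the same libraries as Krt8. The others of this class were Krt18 at 552 ± 168.3 CPM, Krt23 at 134.4 ± 37.2 CPM, Krt20, a chain of gut surface cells, at 95.5 ± 61.8 CPM and Krt7, a chain of ducts, at 89.6 ± 65.2 CPM.

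The basal chains came next. Krt5 (ENSMUSG00000061527, chr15:101707070-101712898) was at 188.1, 383 and 64.9 CPM at 0 h, 128, 283 and 206 CPM at 2 h and 203, 49.5 and 406 CPM at 8 h in the stomach. At the longer fasts it was at 159.05, 361 and 6.75 CPM at 12 h, 443, 189.1 and 466 CPM at 18 h and 16.8, 304 and 563 CPM at 22 h. The low libraries were 8 h replicate 2, 12 h replicate 3 and 22 h replicate 1, each beside much higher ones of the same time. Its type I partner Krt14 (ENSMUSG00000045545, chr11:100203162-100207548) was at 135.6, 233.3 and 59.9 CPM at 0 h, 79.8, 174 and 159.7 CPM at 2 h and 164.3, 34.3 and 332 CPM at 8 h. After that it was at 136.4, 276 and 15.7 CPM at 12 h, 379, 179 and 362 CPM at 18 h and 18.5, 219 and 442 CPM at 22 h, lowest in the same 3 libraries. Krt15, the other basal type I chain, had a mean of 30.8 ± 21.2 CPM.

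By mean CPM, Krt10 and Krt1 of the cornifying layers were the most abundant chains, though Krt8 lay above Krt10 in 6 of the 18 libraries. Krt10 (ENSMUSG00000019761, chr11:99385254-99389364) had 667, 3082 and 764 CPM at 0 h, 1055, 1789 and 1646 CPM at 2 h and 2146, 337 and 3292 CPM at 8 h. It had 1416, 3995 and 76.5 CPM at 12 h, 3618, 3441 and 3545 CPM at 18 h and 74.9, 2651 and 4829 CPM at 22 h. Krt10 was under 400 CPM in the same 3 libraries that were low in Krt5 and over 3000 CPM in others of those times. Krt1 (ENSMUSG00000046834, chr15:101845426-101850794), its type II partner, had 641, 2673 and 572 CPM at 0 h, 868, 1683 and 1481 CPM at 2 h and 1926, 343 and 2935 CPM at 8 h. For the longer fasts Krt1 had 1375, 3439 and 66.4 CPM at 12 h, 3057, 2957 and 3102 CPM at 18 h and 120.4, 2153 and 3985 CPM at 22 h, lowest in the same 3 libraries.

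The chains of moist squamous lining followed that split. Krt4 (ENSMUSG00000059668, chr15:101918535-101924735) reached 425, 1751 and 403 CPM at 0 h, 610.0, 954 and 942 CPM at 2 h and 1015, 246 and 1709 CPM at 8 h. Its later values were 646, 2055 and 93.0 CPM at 12 h, 1417, 1485 and 1427 CPM at 18 h and 147.2, 1169 and 2170.1 CPM at 22 h. Krt13 (ENSMUSG00000044041, chr11:100117327-100121566), its type I partner, reached 447, 1538 and 502 CPM at 0 h, 639, 1033 and 898 CPM at 2 h and 1157, 254 and 1753 CPM at 8 h. Its later values were 653, 1527 and 130.3 CPM at 12 h, 1128, 1394 and 1193 CPM at 18 h and 187.2, 989 and 1725 CPM at 22 h. Both were lowest in 8 h replicate 2, 12 h replicate 3 and 22 h replicate 1, and no fasting time was clear of the others. Krt78 had a mean of 117.5 ± 68.2 CPM and Krt76, the other chain of this class, 0.947 ± 0.657 CPM. Krt80 (ENSMUSG00000037185, chr15:101347444-101370162), a chain outside the classes, was at 7.80, 50.3 and 14.1 CPM at 0 h, 17.2, 29.3 and 20.1 CPM at 2 h and 34.8, 6.36 and 37.6 CPM at 8 h and at 15.3, 28.3 and 2.83 CPM at 12 h, 32.2, 53.95 and 39.9 CPM at 18 h and 4.36, 27.9 and 46.1 CPM at 22 h, again lowest in those 3 libraries, with 0 h replicate 1 next at 7.80 CPM.

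The inducible chains were scarce. Krt17 (ENSMUSG00000035557, chr11:100256217-100261029) was at 16.4, 11.4 and 1.86 CPM at 0 h, 2.22, 25.1 and 11.9 CPM at 2 h and 14.6, 6.68 and 14.4 CPM at 8 h. It was at 2.51, 6.87 and 0 CPM at 12 h, 6.52, 1.65 and 4.64 CPM at 18 h and 5.28, 6.07 and 3.36 CPM at 22 h. Values over 10 CPM came at 0, 2 and 8 h and not later, although each of those times also had a library under 10 CPM. Krt6b (ENSMUSG00000023041, chr15:101676023-101680287) was at 16.9, 12.5 and 2.85 CPM at 0 h, 1.33, 16.8 and 9.36 CPM at 2 h and 19.1, 11.3 and 15.1 CPM at 8 h. It was at 3.58, 4.12 and 0 CPM at 12 h, 4.66, 1.51 and 3.90 CPM at 18 h and 2.07, 9.27 and 2.77 CPM at 22 h, with its values over 10 CPM also at the first 3 times. Krt75 had a mean of 1.18 ± 0.891 CPM. Of the 8 inner root sheath chains of hair 6 had no count in STM and the highest, Krt28, had a mean of 0.0117 CPM, and of the hair shaft and nail chains the highest was Krt84 at 0.683 ± 0.716 CPM.

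**Figure D2:**
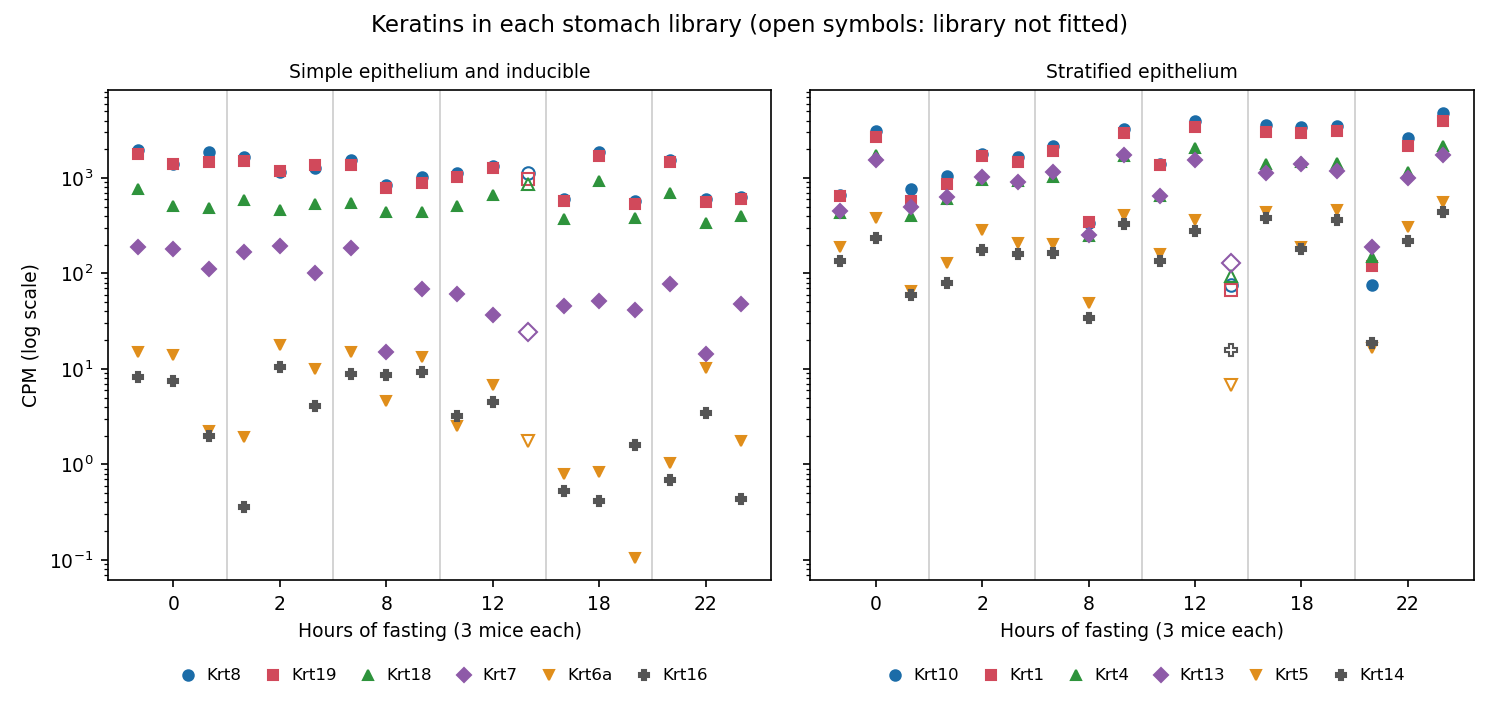
Level in each STM library, in CPM on a log scale, of the keratin genes given by library, by hours of fasting, with an open symbol for the library not fitted. Krt10 ran from 74.9 to 4829 CPM and Krt8 from 578 to 1948 CPM.

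Per kilobase of transcript, the level in STM was 1019 CPM for Krt10, 755 for Krt1, 724 for Krt19, 627 for Krt8, 576 for Krt13, 486 for Krt4, 384 for Krt18, 111.8 for Krt5 and 111.2 for Krt14. The ratio between partner chains ranged less from library to library than the level of either chain in 6 of 7 pairs, and the classic simple pair, Krt8 to Krt18, was the exception. Its ratio ranged 2.90-fold, against 3.37-fold and 2.69-fold in level, and without the library not fitted it ranged 2.50-fold, less than either level. The ratio of Krt1 to Krt10 per kilobase ran from 0.639 to 1.37, a 2.15-fold range, while the levels ranged 59.98-fold for Krt1 and 64.5-fold for Krt10. Without 22 h replicate 1, the library with its highest value, that ratio ranged 1.36-fold. Krt4 to Krt13 ranged 1.88-fold in ratio, against 23.3-fold and 13.5-fold in level. Krt8 to Krt19 ranged 1.34-fold in ratio, against 3.37-fold and 3.41-fold in level. The basal pair, Krt5 to Krt14, ranged 3.81-fold in ratio and was lowest in the library not fitted, without which it ranged 1.81-fold. The inducible pair Krt6a and Krt16 was the loosest, with a 10.2-fold range of ratio over the 14 libraries where both passed the floor, and a 5.53-fold range without 2 h replicate 1, which had 4 counts of Krt16. Krt6b to Krt17 ranged 4.31-fold over 17 libraries.

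Other genes of the same linings varied over the same STM libraries. Of 17 genes of stratified squamous epithelium 16 had a mean of at least 1 CPM, and their sum had a lowest of 554, a median of 2978 and a highest of 6811 CPM. Krtdap was the most abundant at 799.6 CPM and Sprr3 next at 609 CPM, and Crnn was near 0 (0.148 CPM). The libraries low in Krt10 were low in this sum too, with 679.5 CPM in 8 h replicate 2, 554 CPM in 12 h replicate 3 and 828 CPM in 22 h replicate 1. Of 12 cornification genes 11 had a mean of at least 1 CPM, with a lowest sum of 463, a median of 1965 and a highest of 4785 CPM and Lor (1120.4 CPM) and Asprv1 (517 CPM) at the top. Their part in the keratin levels was not tested, and in bulk tissue fewer cells of a type and less RNA per cell cannot be told apart.

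The fasting tests asked whether keratin levels changed with time without food. Of the 25 keratin genes tested in STM, 0 were called over the 6 times by edgeR at an adjusted p under 0.05, beside 6.55% of all 16281 genes tested. At an unadjusted p under 0.05 there were 4 (Krt6a, Krt7, Krt16 and Krt79), beside 23.7% of all genes, DESeq2 called 3 (Krt6a, Krt6b and Krt16), beside 2805 of all genes, and without 2 h replicate 1 or without 22 h replicate 2 edgeR called 1. The late contrast set the mean of 18 and 22 h against 0 h. It gave 0 keratin genes higher, beside 3.42% of all genes, also 0 at an unadjusted p under 0.05 and 0 by DESeq2, and 3 lower, beside 3.67%, at an adjusted p under 0.05 and a log2 fold change beyond 1 (6 lower at an unadjusted p under 0.05, beside 5.44%, and 4 by DESeq2, beside 711 of all genes). The median log2 fold change was -0.36 over the 25 keratin genes and -0.00307 over all genes.

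The 3 genes were Krt6a, Krt16 and Krt7. Krt6a (ENSMUSG00000058354, chr15:101689910-101694307), an inducible type II chain, was at 15.1, 13.9 and 2.23 CPM at 0 h, 1.95, 17.9 and 10.1 CPM at 2 h and 15.1, 4.59 and 13.3 CPM at 8 h and at 2.51, 6.74 and 1.74 CPM at 12 h, 0.799, 0.826 and 0.105 CPM at 18 h and 1.03, 10.2 and 1.75 CPM at 22 h. Of the 6 late libraries 5 were below every 0 h library, and 22 h replicate 2 was not. The means were 10.4 ± 7.11 CPM at 0 h (n = 3) and 2.45 ± 3.83 CPM late (n = 6), with a log2 fold change of -2.84 (SE 0.826, adjusted p 0.0361) by edgeR, lower in 5 of 6 libraries. Krt16 (ENSMUSG00000053797, chr11:100246091-100248902), an inducible type I chain, was at 8.19, 7.41 and 1.98 CPM at 0 h, 0.354, 10.5 and 4.11 CPM at 2 h and 8.83, 8.56 and 9.26 CPM at 8 h and at 3.22, 4.54 and 0 CPM at 12 h, 0.533, 0.413 and 1.58 CPM at 18 h and 0.689, 3.43 and 0.438 CPM at 22 h. The same 5 of 6 late libraries were below every 0 h library, as 5.86 ± 3.38 CPM went to 1.18 ± 1.19 CPM, and the edgeR log2 fold change was -2.44 (SE 0.740, adjusted p 0.0395). Krt7 (ENSMUSG00000023039, chr15:101411043-101430313) was at 188.8, 181 and 112.3 CPM at 0 h, 169.3, 194 and 100.02 CPM at 2 h and 184, 14.9 and 68.9 CPM at 8 h and at 60.3, 36.8 and 24.4 CPM at 12 h, 45.4, 51.1 and 41.9 CPM at 18 h and 76.7, 14.4 and 47.9 CPM at 22 h. All 6 late libraries lay below the 3 at 0 h, although 8 h replicate 2 at 14.9 CPM was already as low, and the edgeR log2 fold change was -1.92 (SE 0.566, adjusted p 0.0396).

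With each of the 17 libraries left out in turn, the call was lost in 7 fits for Krt6a, 8 for Krt16 and 9 for Krt7. The log2 fold changes kept their sign, at -3.67 to -2.41 for Krt6a, -3.13 to -2.06 for Krt16 and -2.28 to -1.70 for Krt7. The counts that follow need not hold these same genes. The number lower late was 0 without 0 h replicate 1, 0 h replicate 2, 0 h replicate 3, 18 h replicate 1 or 22 h replicate 3, 1 without 2 h replicate 3 (Krt7) or 18 h replicate 3 (Krt16), and 2 without 2 h replicate 2. It was 4 without 18 h replicate 2 or 22 h replicate 2 and 5 without 22 h replicate 1. With the pair of alike 18 h libraries summed it was 0, as it was with no filter on low counts (40 keratin genes tested). With no library left out it was 2, without Krt16. With replicate number fitted as a replicate block it was 3. Lane 6 as a covariate, an alternative chosen after the data were seen, gave log2 fold changes of -3.21 (adjusted p 0.726) for Krt6a, -2.40 (adjusted p 0.748) for Krt16 and -1.39 (adjusted p 0.818) for Krt7, with 0 of 25 keratin genes and 0 of all 16281 genes called by edgeR, 0 keratin genes at an unadjusted p under 0.05 and no DESeq2 fit. All 0 h libraries were on lane 5 and all late libraries on lane 6, so that lane and late fasting were told apart only through the 8 h libraries.

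Of the other simple chains none was called. Krt18 had an edgeR log2 fold change of -0.32 (SE 0.311) and Krt23 of -0.21 (SE 0.224). Krt20 was 164.9 ± 16.8 CPM at 0 h and 54.4 ± 50.2 CPM late, lower in 6 of 6. Krt8 and Krt19 were lower in 4 of 6 late libraries, and high in 18 h replicate 2 and 22 h replicate 1. Krt10 was above every 0 h library in 4 of 6 and below them in 22 h replicate 1, at 1505 ± 1367 and 3026 ± 1606 CPM. By class, the median late log2 fold change was -0.95 for 6 simple chains, -1.55 for 5 inducible, 0.49 for 3 basal, 0.33 for 4 mucosal and 0.85 for Krt1 and Krt10.

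Genes that are not keratins were read beside these, from lists of the stomach lining and from the pancreas list, which is of another tissue. In the late contrast 5 of 13 gland genes were lower (Gif, Muc5ac, Tff2, Gkn2 and Gkn3, median -1.37), 3 of 13 genes of epithelium in general were lower (Epcam, Cldn3 and Cldn7, median -0.49), and all 5 tested pancreas acinar genes were lower (median -5.69). By edgeR 0 of 16 squamous genes were called (median 0.72), as were 0 of 12 cornification genes (median 0.61), with 0 at an unadjusted p under 0.05 and 0 by DESeq2 in both lists. The partners and regulators of keratins, which are the plakins and plaques that anchor the filaments and factors such as Trp63, Klf4 and Grhl3, summed to a lowest of 925, a median of 2169 and a highest of 3017 CPM in STM, with Dsp (404 CPM) and Jup (354 CPM) at the top. Of the 14 tested, 0 were called over the times and 0 late by edgeR, 0 at an unadjusted p under 0.05 and 0 by DESeq2. Of all genes 3.67% were lower late, and with lane 6 as a covariate 0 of all 16281 genes were called by edgeR. The part of these lists in the keratin results was not tested.

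In psWAT the levels were low and uneven. Krt18 (ENSMUSG00000023043, chr15:102028180-102032027), the type I chain of simple epithelia, was at 1.45, 0.276 and 0.132 CPM at 0 h, 0, 0.458 and 0.125 CPM at 2 h and 0.340, 0 and 15.1 CPM at 8 h. It was at 0.143, 1.09 and 0 CPM at 12 h, 0.319, 125.2 and 178 CPM at 18 h and 1.77, 0 and 0.732 CPM at 22 h. The libraries 18 h replicates 2 and 3 were over 100 CPM, 8 h replicate 3 was at 15.1 CPM and the other 15 were under 2 CPM, with a median of 0.330 CPM over 18. Krt19 was at 1.45, 0.138 and 0 CPM at 0 h, 0, 0.917 and 0 CPM at 2 h and 0.170, 0 and 12.2 CPM at 8 h in psWAT. It was at 0, 0 and 0.943 CPM at 12 h, 0.106, 61.4 and 81.2 CPM at 18 h and 0.885, 1.36 and 0.732 CPM at 22 h, high in the same 3 libraries. Krt8 had 8.51, 47.4 and 80.5 CPM and Krt7 4.61, 32.3 and 52.5 CPM in those libraries, and their medians over 18 were 0.384 and 1.07 CPM. Krt7, Krt8 and Krt15 of this organ were singled out after their values were seen.

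The basal chains of psWAT had a further high library. Krt14 was at 0, 0.138 and 0 CPM at 0 h, 0.142, 0.115 and 0 CPM at 2 h and 0.170, 14.2 and 1.42 CPM at 8 h. It was at 0, 0 and 2.04 CPM at 12 h, 0, 19.2 and 30.2 CPM at 18 h and 1.24, 0 and 2.93 CPM at 22 h. Krt14 passed 10 CPM in 8 h replicate 2 and 18 h replicates 2 and 3 and was under 3 CPM in the other 15. Krt5 was at 0, 0.414 and 0 CPM at 0 h, 0, 0.115 and 0 CPM at 2 h and 0.170, 22.1 and 3.90 CPM at 8 h there. It was at 0, 0.182 and 1.73 CPM at 12 h, 0, 15.8 and 15.7 CPM at 18 h and 0, 0 and 0.244 CPM at 22 h, with the same 3 libraries over 10 CPM. Krt15 had 42.4 CPM in 8 h replicate 2 and 3.30 CPM in 12 h replicate 3, and a median of 0 CPM. The same 8 h replicate 2 held Krt6a at 8.16 CPM, Krt77 at 6.06 CPM and Krt1 at 3.73 CPM, each the highest value of that gene in the organ.

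Krt10 was found in every psWAT library, at 3.05, 5.24 and 2.63 CPM at 0 h, 2.69, 2.64 and 4.48 CPM at 2 h and 5.77, 8.86 and 5.85 CPM at 8 h. It was at 3.15, 3.64 and 11.5 CPM at 12 h, 2.24, 2.45 and 1.76 CPM at 18 h and 3.72, 4.75 and 2.20 CPM at 22 h, over 10 CPM in 12 h replicate 3 only (edgeR over the times, unadjusted p 0.0457, adjusted p 0.255). Krt17 was at 0, 0.551 and 0.659 CPM at 0 h, 0.708, 0.229 and 0.374 CPM at 2 h and 1.53, 4.66 and 3.90 CPM at 8 h. It was at 0.286, 0.364 and 8.49 CPM at 12 h, 0.106, 8.26 and 11.3 CPM at 18 h and 0.354, 3.40 and 6.34 CPM at 22 h, with its highest values in 12 h replicate 3 and 18 h replicates 2 and 3. Krt222 (ENSMUSG00000035849, chr11:99232761-99244085) was at 4.21, 3.58 and 4.48 CPM at 0 h, 2.55, 4.47 and 3.61 CPM at 2 h and 3.06, 3.96 and 3.19 CPM at 8 h. It was at 3.15, 3.46 and 47.2 CPM at 12 h, 2.24, 2.96 and 3.37 CPM at 18 h and 2.83, 4.75 and 3.17 CPM at 22 h. The library 12 h replicate 3, the one with cerebellar genes, set its mean: 5.90 ± 10.3 CPM with it and 3.47 ± 0.707 CPM without. Krt25, an inner root sheath chain that was highest in CBL at 8.06 ± 1.37 CPM, had 8.33 CPM in that library too. Of the mucosal chains Krt4 and Krt78 had means under 1 CPM and the others no count, and the highest hair shaft chain was Krt36 at 0.522 ± 0.506 CPM.

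**Figure D3:**
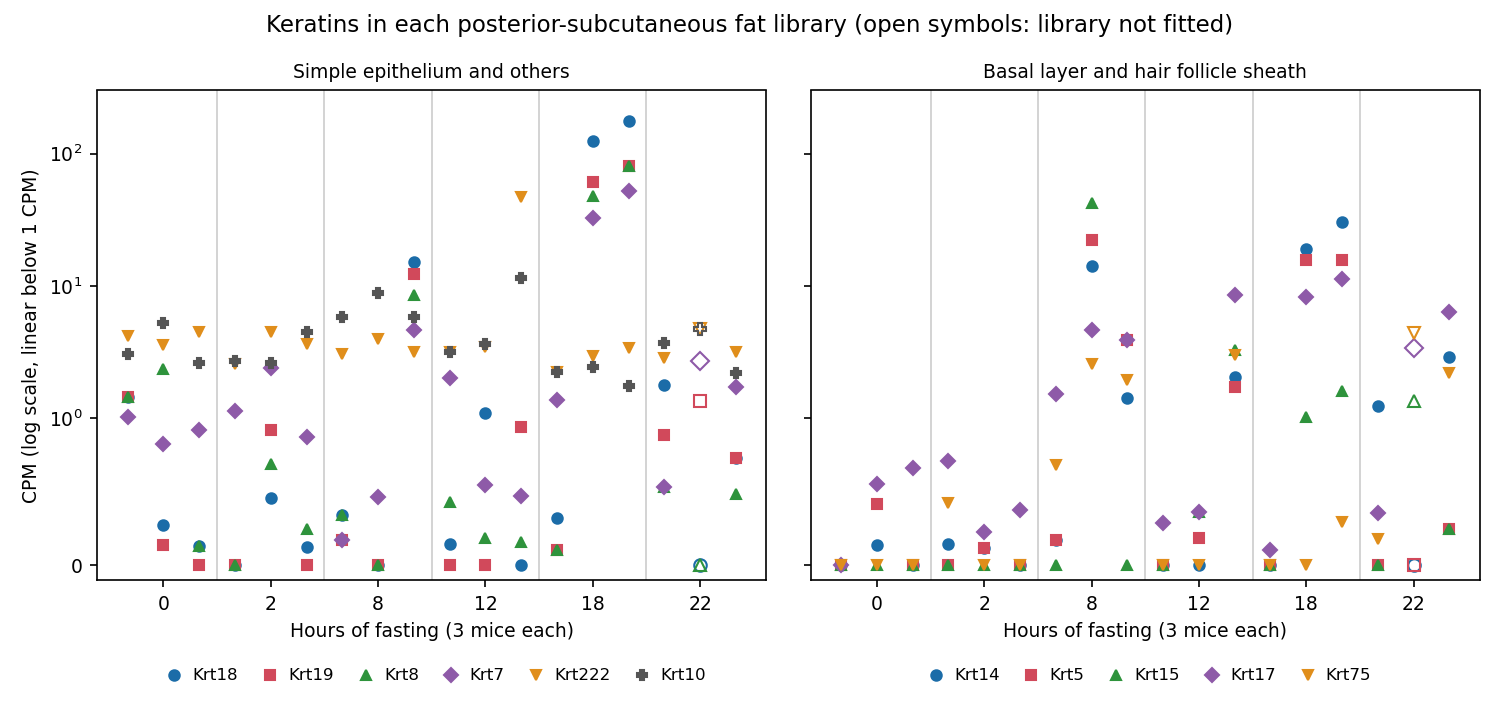
Level in each psWAT library, in CPM, of the keratin genes given by library, by hours of fasting, with an open symbol for the library not fitted. Krt18 reached 125.2 and 178 CPM at 18 h and was under 2 CPM in 15 of 18 libraries.

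Marker genes were read in the same psWAT libraries. Of 13 genes of epithelium in general 11 had a mean of at least 1 CPM, and their sum, with a median of 33.3 CPM and a lowest of 11.5 CPM, was 253 and 348 CPM in 18 h replicates 2 and 3. St14 was the most abundant on average (17.2 CPM), and Epcam had 62.4 and 87.4 CPM in the 2 libraries. Of 10 mammary genes 5 had a mean of at least 1 CPM, and the sum ran from 6.60 over 133.9 to 658 CPM. Its most abundant gene, Glycam1 (139.8 CPM), is also made in lymph nodes. Prlr had 143.3 and 172 CPM in 18 h replicates 2 and 3 and 19.7 CPM in 8 h replicate 3 (median 1.51), and Csn3 had 66.1, 106 and 16.5 CPM (median 0.0689). The milk genes Wap, with no count, and Csn1s1 and Csn2, at means of 0.00814 and 0.173 CPM, were absent or near absent. The part of these genes in the keratin levels was not tested.

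The skin lists were read next. Of 17 squamous genes 8 had a mean of at least 1 CPM in psWAT, Sprr3 and Crnn had no count, and the sum was a lowest of 37.5, a median of 110.1 and a highest of 152.1 CPM, led by Sfn (34.7 CPM) and Dsc3 (31.0 CPM). The cornification sum was a lowest of 12.95, a median of 25.6 and a highest of 96.1 CPM, led by Cdsn (24.3 CPM) and Asprv1 (10.9 CPM). Of 13 hair follicle genes 2 had a mean of at least 1 CPM, with Tchh at 1.09 CPM, Krtap5-4 and Krtap16-1 without a count, and a lowest sum of 0.958, a median of 2.51 and a highest of 17.4 CPM. Its highest libraries were 18 h replicate 3 and 12 h replicate 3, at 17.4 and 17.3 CPM. Of 8 sebaceous gland genes 5 had a mean of at least 1 CPM, with a lowest sum of 28.2, a median of 85.3 and a highest of 104.6 CPM and Soat1, which other cells make too, at 64.5 CPM.

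The remaining lists covered other tissues. In psWAT their sums, as lowest, median and highest, were 1.84, 7.37 and 1095 CPM for mesothelium (1 of 8 genes with a mean of at least 1 CPM, Gpm6a, highest in 12 h replicate 3, the library with cerebellar genes), and 0.991, 4.04 and 8.78 CPM for stomach glands (2 of 13, Gkn3 first). Epididymis genes had 0, 0.0532 and 1.65 CPM (0 of 8, Crisp1 first), and pancreas acinar genes 1.27, 4.49 and 502 CPM (6 of 6, Ctrb1 first, highest in 12 h replicate 1). Bile duct genes had 5.43, 14.9 and 152.6 CPM (4 of 6, Epcam first), choroid plexus genes 0, 0.369 and 32.7 CPM (2 of 6, Clic6 first), and olfactory mucosa genes 7.51, 19.2 and 61.1 CPM (4 of 5, Cbr2 first), all 3 highest in 18 h replicate 3. Brown adipocyte genes had 13.98, 53.7 and 1363 CPM (4 of 4, Cidea first) and hepatocyte genes 61.6, 559 and 2712 CPM (4 of 5, Cyp2e1 first). Keratin partners and regulators had 256, 406 and 655 CPM there (11 of 15, Plec first).

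The same lists were read in STM. The sums, as lowest, median and highest, were 36.7, 1452 and 4027 CPM for skeletal muscle (6 of 6, Acta1 first), 668, 1283 and 2752 CPM for hepatocytes (5 of 5, Apoa1 first) and 12.1, 40.9 and 514 CPM for pancreas (6 of 6, Cela1 first). They were 1098, 1433 and 1936 CPM for epithelium in general (13 of 13, Cdh1 first), 160.1, 463 and 1054 CPM for bile duct (6 of 6, Tspan8 first) and 205, 745 and 1063 CPM for choroid plexus (3 of 6, Clic6 first). Adipocyte genes summed to 43.1, 99.9 and 249.6 CPM (5 of 6, Fabp4 first), brown adipocyte genes to 37.6, 57.7 and 158 CPM (2 of 4, Cox7a1 first) and sebaceous genes to 92.6, 209 and 262 CPM (3 of 8, Fa2h first). Medians were under 50 CPM for olfactory mucosa (42.4), epididymis (24.9, of which Adam28 alone had a mean of at least 1 CPM), mammary (23.1), mesothelium (22.7), hair follicle (22.5, Shh first) and cerebellar neuron genes (8.43).

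Over the fasting times in psWAT, 0 of 14 keratin genes tested were called by edgeR, beside 0% of all 16721 genes. There were 9 at an unadjusted p under 0.05, beside 19.1% of all genes, and DESeq2 called 5 (Krt5, Krt7, Krt8, Krt14 and Krt18), beside 2053 of all genes, while edgeR with no library left out called 3 (Krt7, Krt8 and Krt18), beside 373 of all 16785. Late against 0 h, 0 were higher and 0 lower by edgeR, beside 0% and 0% of all genes, with 4 higher (Krt7, Krt14, Krt17 and Krt18) and 0 lower at an unadjusted p under 0.05, beside 0.664% and 1.63%. DESeq2 called 1 higher (Krt15) and 0 lower, beside 1 and 2 of all genes, and Krt15 had no count at 0 h and a late mean of 0.575 CPM (unadjusted p 0.332 by edgeR). The late mean of Krt18 was 61.1 ± 84.5 CPM (n = 5) against 0.620 ± 0.725 CPM at 0 h (n = 3), above every 0 h library in 3 of 5, and its SD exceeded its mean. The difference between the late change in STM and that in psWAT was tested directly: 0 of 26 keratin genes were called by edgeR, beside 0.00548% of all 18232 genes, 5 had the lower late change in STM at an unadjusted p under 0.05, beside 2.46%, and DESeq2 called 2 (Krt7 and Krt15), beside 0.609%. For 9 of the 26 (Krt1, Krt6a, Krt6b, Krt13, Krt16, Krt32, Krt76, Krt78 and Krt84) the SE was over 10, so that no change in STM was within reach of a call.

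STM and psWAT were then compared as organs, with fasting time in the model. Of 26 keratin genes tested, 25 were higher in STM, beside 23.3% of all 18232 genes, and 1 was lower, beside 20.3%; the other 28 were too low to test. Below, each adjusted p of an organ comparison is followed by how many libraries of the higher organ lay above every library of the other. A gene passed that filter by being high in either organ, so that the count says nothing of the untested 28, and 12 of the 25 passed it in STM alone. Over the libraries kept, every STM library lay above every psWAT library for 12 of the 26 (Krt1, Krt4, Krt6b, Krt8, Krt10, Krt13, Krt18, Krt19, Krt20, Krt23, Krt78 and Krt80). For Krt222 it was the other way. The means of the libraries kept were 2256 ± 1423 and 4.23 ± 2.60 CPM for Krt10, and its edgeR log2 fold change was 9.77 (SE 0.495, adjusted p 3.54e-17, 17 of 17). Krt8 had 10.28 (SE 0.909, adjusted p 1.82e-11, 17 of 17), Krt19 10.16 (SE 1.0002, adjusted p 1.91e-10, 17 of 17), Krt5 8.12 (SE 0.825, adjusted p 3.78e-10, 16 of 17) and Krt14 7.43 (SE 0.761, adjusted p 4.52e-10, 16 of 17). The smallest differences among the named genes were those of Krt17, 2.52 (SE 0.682, adjusted p 0.00159, 6 of 17), Krt79, 2.35 (SE 0.479, adjusted p 6.61e-05, 3 of 17), and Krt75, 2.24 (SE 0.704, adjusted p 0.00559, 0 of 17), whose organs overlapped. DESeq2 called 24 higher and gave no p for Krt8, whose log2 fold change was 10.61. Krt222 was at 0.392 ± 0.361 CPM in STM and 5.97 ± 10.6 CPM in psWAT, a log2 fold change of -2.74 (SE 0.487, adjusted p 1.03e-05, 17 of 17). Against psWAT libraries at the floor, the STM mean of Krt4 was at least 1493-fold, of Krt13 at least 1368-fold, of Krt6b at least 11.02-fold and of Krt76 at least 1.37-fold higher. Each such bound, here and below, sets a mean over the libraries kept against the floor, and need not hold for each library.

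Scaling mattered for all genes in this comparison, though for the named keratins it changed no sign. With TMM factors 4250 of the 7955 genes called were higher in STM (53.4%), and the median log2 fold change of all genes was 0.03. With total counts alone 2842 of 10000 were higher (28.4%), and the median was -0.69.

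Among the fat depots, psWAT was compared with pgWAT and with iBAT, in tests that share the psWAT libraries with each other and with the comparison against STM. Of 14 keratin genes tested against pgWAT, 3 were higher in psWAT, beside 21.4% of all 18006 genes, and 6 lower, beside 20.7%. None of the 3 higher ones passed the filter in pgWAT by itself, so that each entered the test through its level in psWAT. They were Krt17 at 2.83 ± 3.65 and 0.167 ± 0.242 CPM, with an edgeR log2 fold change of 3.26 (SE 0.742, adjusted p 0.000248, 7 of 17), Krt75, 4.48 (SE 0.790, adjusted p 1.59e-05, 8 of 17), at least 1.28-fold higher over a pgWAT at the floor, and Krt20, 1.07 (SE 0.437, adjusted p 0.0279, 5 of 17). Krt20 was no longer called without the mouse of 0 h replicate 2, 18 h replicate 1, 18 h replicate 2 or 22 h replicate 1, with log2 fold changes of 0.85 to 1.27 over all mice left out in turn. Nor was it called with the mouse fitted as a block, which left 2 higher. Krt79, a chain of the follicle opening, was at 2.89 ± 3.18 CPM in psWAT and 14.6 ± 5.96 CPM in pgWAT, and its log2 fold change was -3.10 (SE 0.496, adjusted p 2.11e-06, 13 of 18). Of the simple chains 4 were lower, with Krt7 at -2.84 (SE 0.480, adjusted p 4.88e-06, 0 of 18), Krt8 at -4.28 (SE 0.867, adjusted p 6.14e-05, 2 of 18), Krt18 at -3.93 (SE 0.947, adjusted p 0.000479, 2 of 18) and Krt19 at -4.74 (SE 0.915, adjusted p 3.26e-05, 2 of 18), as was Krt80 at -1.92 (SE 0.389, adjusted p 5.97e-05, 12 of 18).

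The pgWAT levels of simple chains were uneven as well. Krt19 was 52.6 ± 79.3 CPM with a median of 29.8 CPM, and the libraries with epididymis genes had 347 (22 h replicate 2), 43.1 (18 h replicate 3) and 151.3 CPM (2 h replicate 2). Krt18 had 296, 260.1 and 60.7 CPM there against a median of 16.1, and Krt8 253, 140.6 and 71.0 CPM against 20.4. All 8 genes of mesothelium, the cell sheet on the surface of that fat, had a mean of at least 1 CPM in pgWAT, with a lowest sum of 160.996, a median of 298 and a highest of 388 CPM and Upk3b first (103.8 CPM). Their part in the difference was not tested. Without psWAT 12 h replicate 3 and pgWAT 22 h replicate 2 the counts were 3 higher and 6 lower, and with pgWAT 18 h replicate 3 left out as well, an alternative chosen after the data were seen, 2 higher (without Krt20) and 6 lower. With total counts alone 63.4% of the genes called among all were higher in psWAT, against 50.7% with TMM factors, and the median log2 fold change of all genes was 0.25 against -0.04.

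Against iBAT, 8 of 14 keratin genes tested were higher in psWAT, beside 28.5% of all 17256 genes, and 2 lower, beside 22.2%. None of the 8 passed the filter in iBAT alone, so that each entered the test through its level in psWAT. Krt17 was at 5.86 (SE 0.763, adjusted p 3.96e-08, 15 of 17) by edgeR and at least 2.98-fold higher over an iBAT at the floor. Krt14 had 6.72 (SE 0.989, adjusted p 3.65e-07, 10 of 17), at least 4.44-fold higher over an iBAT at the floor, Krt5 5.81 (SE 0.975, adjusted p 3.23e-06, 6 of 17), Krt15 5.68 (SE 1.27, adjusted p 0.000374, 5 of 17) and Krt75 4.39 (SE 0.860, adjusted p 5.03e-05, 8 of 17), the last with iBAT at the floor and no lower bound above 1-fold. The psWAT libraries counted for these 5 genes, and for Krt75 against pgWAT, included some at or below the floor of 3 counts. Krt20 had 1.63 (SE 0.499, adjusted p 0.00392, 6 of 17), Krt7 1.86 (SE 0.688, adjusted p 0.0153, 6 of 17) and Krt18 2.65 (SE 1.08, adjusted p 0.0270, 3 of 17). Krt18 was no longer called without the mouse of 0 h replicate 1, 8 h replicate 3, 18 h replicate 2 or 18 h replicate 3 (2.43, 2.14, 2.08 and 1.98), and without the mouse of 8 h replicate 2 its value was 4.35, the highest. In that iBAT library Krt8 was at 11.1, Krt18 at 3.59 and Krt19 at 10.3 CPM, against at most 2.38, 0.634 and 0.980 CPM in the other iBAT libraries. The lower ones were Krt79, 2.89 ± 3.18 against 12.2 ± 2.67 CPM, at -3.45 (SE 0.476, adjusted p 1.20e-07, 16 of 17), and Krt10, -1.14 (SE 0.269, adjusted p 0.000319, 2 of 17). Scaling bore on the last: the median log2 fold change of all genes was 0.12 with TMM factors, 0.29 with RLE factors or DESeq2 and 1.05 with total counts alone (84.4% of the genes called higher in psWAT, against 56.1%), and under these alternatives Krt10 was not called. By DESeq2 its log2 fold change was -0.98 (adjusted p 0.000186), short of the fold threshold only.

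Elsewhere in the body few keratins passed 10 CPM. In LIV, Krt8 was at 169.1 ± 19.5 CPM (136.4 to 217) and Krt18 at 212 ± 33.997 CPM (169.3 to 279.7), which per kilobase was 86.3 and 147.6 CPM. LIV 8 h replicate 3 also had Krt4 at 12.1, Krt13 at 12.4 and Krt1 at 3.03 CPM. Krt222 was at 87.2 ± 3.66 CPM in BST, 82.8 ± 5.78 in CBL, 38.4 ± 3.22 in OB and 37.4 ± 10.3 in the 16 BRN libraries kept. Krt9, a chain of footpad epidermis, was at 12.3 ± 3.69 CPM in the BRN libraries kept and 8.76 ± 1.80 CPM in OB, and Krt12, the chain of the cornea, at 15.7 ± 5.19 and 8.22 ± 2.04 CPM. Krt10 was at 12.9 ± 5.52 CPM in the BRN libraries kept, 10.6 ± 2.22 in OB and 10.2 ± 1.998 in CBL. Krt79 was at 14.6 ± 5.96 CPM in pgWAT and 13.04 ± 4.35 CPM in iBAT.

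Over fasting in the other organs, OB had 5 of 7 keratin genes called, beside 15.4% of all 16742 genes. Krt77 was at 1.97, 2.52 and 1.74 CPM at 0 h, 2.11, 2.097 and 2.80 CPM at 2 h and 1.92, 2.12 and 2.15 CPM at 8 h and at 3.57, 3.28 and 2.82 CPM at 12 h, 4.13, 3.49 and 3.23 CPM at 18 h and 3.53, 4.14 and 3.84 CPM at 22 h. All libraries from 12 h on were above all earlier ones, from 2.08 ± 0.401 at 0 h to 3.84 ± 0.308 CPM at 22 h (n = 3 each), with an edgeR adjusted p of 0.00838. Krt9 went from 7.08 ± 1.72 to 10.98 ± 1.41 CPM at 18 h (edgeR adjusted p 0.0485), Krt10 from 9.27 ± 0.868 to 14.2 ± 3.76 CPM (0.0447) and Krt12 from 7.70 ± 1.12 to 11.6 ± 2.61 CPM (0.0196). Krt18 fell from 0.936 ± 0.350 to 0.0879 ± 0.107 CPM at 22 h (edgeR adjusted p 0.0322). These were 15, 7 and 15 counts at 0 h and 0, 3 and 1 at 22 h, all of the latter at the floor, so that the size of the fall cannot be read. At 22 h Krt10 was back at 10.3 ± 0.147 and Krt12 at 8.51 ± 0.936 CPM. DESeq2 gave Krt18 no adjusted p (unadjusted 0.000608), RLE factors did not give Krt9 and the replicate block did not give Krt10. The labels put the OB libraries of 0 h, 2 h and 8 h replicates 1 and 2 on lane 3 and all later ones on lane 4. With lane 4 as a covariate, chosen after the data were seen, edgeR called 1 of 7, beside 7.02% of all genes. It was Krt12 (adjusted p 0.0484), while Krt77 had an adjusted p of 0.317, Krt10 of 0.102, Krt9 of 0.180 and Krt18 of 0.560. Only the 8 h libraries tell lane and fasting apart.

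In iBAT 1 of 4 keratin genes tested was called, beside 29% of all 14529 genes. It was Krt10, at 4.01, 2.05 and 6.79 CPM at 0 h, 2.85, 1.89 and 2.87 CPM at 2 h and 2.92, 3.09 and 3.52 CPM at 8 h and at 8.82, 2.64 and 6.97 CPM at 12 h, 4.24, 5.36 and 5.17 CPM at 18 h and 5.18, 13.6 and 12.9 CPM at 22 h, where the first value of 22 h is the library left out. Both 22 h libraries kept lay above all others, of which 12 h replicate 1 was the highest, and the edgeR adjusted p was 0.00612. The 2 kept libraries of 22 h were on lanes 1 and 3, which held no other iBAT library kept, so that lane and 22 h cannot be told apart. By edgeR 0 keratin genes were called in BRN (11 tested, beside 0.00597% of all genes; 0 at an unadjusted p under 0.05, 0 by DESeq2), CBL (8 tested, beside 2.99%; 1 and 0), BST (8 tested, beside 0.107%; 0 and 0), LIV (8 tested, beside 16%; 1 and 0) and pgWAT (11 tested, beside 0%; 0 and 0).

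The promoters of the family were searched for TATAAA, the letters of a TATA box, in the 30 bases from -40 to -11 before the start given by the promoter entry. RefSeq promoter sequences (GRCm38.p6) were at hand for 36 of the 54 symbols, in 37 entries. The letters were in the window of 13 of 37 on the sense strand (35.1%), and of 683 of all 32851 promoters (2.08%). On either strand these were 13 and 875 (2.66%). By cluster it was 10 of 21 entries on chromosome 11 and 3 of 16 on chromosome 15. The windows of chains that carry the levels above are shown 5′ to 3′ on the strand of the gene, with the letters searched in capitals, for a cornifying chain, a gut surface chain, the corneal chain and 4 chains without the letters (a basal, a mucosal, from 1 of its 2 entries, and the simple pair).
Krt10, chr11:99389375-99389404, minus strand: acgccctctcagtaTATAAAggctcggcac
Krt20, chr11:99438164-99438193, minus strand: ctcttgaactcTATAAAaggtcatctccac
Krt12, chr11:99422270-99422299, minus strand: acctcccagccTATAAAggcaggacccctt
Krt5, chr15:101712916-101712945, minus strand: cttctaaggggataaaaggggacctcaaat
Krt13, chr11:100121577-100121606, minus strand: gtggaggacgcataaaaggcatgcacggca
Krt8, chr15:102004353-102004382, minus strand: agaggcccttttccctcccctggggctggc
Krt18, chr15:102028176-102028205, plus strand: ccctacctcctcccgcggcgatataacaac
The starts of the entries can differ from those of the annotation, and the Krt8 window lay inside the annotated gene and the Krt18 window across its start. A match in these letters is a description of the sequence, and Krt1, Krt4, Krt6a, Krt16 and Krt19 had no entry.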

How the data were processed

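RNA of 9 organs from 18 mice was sequenced, and the deposited table held gene counts that the authors made with TopHat2 2.1.1 and HTSeq 0.9.1 on GRCm38.p5. Every column was matched to its label (unmatched columns 0). CPM is the usual scaling of counts to a library's total, without TMM factors. Each organ was fitted with edgeR 4.0.16 (TMM factors, robust quasi-likelihood F test, R 4.3.3, limma 3.58.1) on the libraries the study kept. Genes were tested if 3 or more libraries reached the CPM that 10 counts give at the organ's median depth. P-values were adjusted over all genes tested (Benjamini-Hochberg) and called under 0.05, in contrasts also beyond a log2 fold change of 1. SE is the log2 fold change over the square root of F. Organ comparisons had fasting time as a term. Alternatives were DESeq2 1.42.0, RLE factors, no filter, total counts, no library left out, a replicate block, an animal block, lanes, and leaving out each library or mouse. The fits were tested on simulated data with the same spread for all genes. Genes near the floor were not changed there, so that low and uneven keratin levels were not covered.

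Named genes were those with a mean of at least 10 CPM over the 18 libraries of an organ, those called in STM or psWAT or between organs, and the highest of each of 8 keratin lists; values by library were given for the 2 highest of each list with 10 CPM in a library. Of 54 keratin genes Krt88 was in no list, and Krt85 was not in the table. The lists of marker genes, keratin partners among them, and the keratin genes were chosen with earlier results of these data known. Replicate number was checked as a pairing: across organ times, the mean r of libraries with the same number was 0.00691 in STM and -0.0837 in psWAT, but 0.163 in iBAT, where 21 of 40 pairs were over 0.1. Organs taken as from the same mouse had a mean r of 0.0939 (psWAT and pgWAT), 0.00387 (psWAT and iBAT) and -0.0465 (STM and psWAT). A low r cannot tell whether the numbers match mice. No block was put in the tests reported. Python 3.11.15 drew up tables with numpy 2.4.6 and pandas 2.3.3 and plots with matplotlib 3.10.9.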

Additional observations from a re-analysis of the deposited data

Results flagged for a closer look

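The 5 libraries left out of the reported tests were small, and 6 keratin values of more than 3 counts in them lay above the highest library kept of the same organ. In BRN 18 h replicate 1 Krt9 was at 89.3 CPM, from 25 counts of 279848, against at most 20.6 CPM in the 16 BRN libraries kept. In STM 12 h replicate 3 Krt42 was at 2.18 CPM, from 10 counts, against at most 0.264 CPM. In iBAT 22 h replicate 1 Krt79 was at 27 CPM (27.03 from 73 counts) against at most 16.8 CPM, and Krt20 at 1.85 CPM, from 5 counts, against at most 1.36 CPM. In psWAT 22 h replicate 2 Krt23 was at 4.08 CPM, from 12 counts, against at most 2.93 CPM, and Krt75 at 4.41 CPM, from 13 counts, against at most 2.99 CPM. Each is 1 value from 1 library, and no reported comparison rested on it.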

How the results depend on the processing

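Of 331 alternatives tried for the 20 counts of keratin genes called, 305 gave a count within 1.5 times the reported one. Most of the 331 left out 1 library or mouse. They include the fits of OB, CBL, BST, LIV and pgWAT with no library left out, which repeat the reported fit and could not differ. Of 803 alternatives for 37 results of named genes (gene and comparison), 749 stayed on the same side of the threshold, 54 were no longer past it and 0 changed sign.

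The counts that moved were these. DESeq2 called 3 over the times in STM, 5 over the times in psWAT, 1 higher late in psWAT, 2 whose late change differed between STM and psWAT, and 1 lower in psWAT than iBAT. RLE factors and total counts alone also left 1 lower in psWAT than iBAT, where Krt10 was no longer called. Fits with no library left out gave 3 over the times in psWAT. For OB, CBL, BST, LIV and pgWAT that fit is the reported one. No filter on low counts gave 0 lower late in STM, 2 lower in STM than psWAT, 8 higher and 12 lower in psWAT than pgWAT, and 17 higher in psWAT than iBAT, with more genes tested. Lane 6 as a covariate gave 0 lower late in STM, STM 18 h replicates 1 and 3 summed also gave 0, and lane 4 as a covariate gave 1 over the times in OB, all chosen after the data were seen. So were the fits that left out psWAT 12 h replicate 3 from the difference between STM and psWAT or pgWAT libraries high in epididymis genes, except the organ comparisons without psWAT 12 h replicate 3 and pgWAT 22 h replicate 2. Except for the filter, the cause was not tested. The replicate block changed no count by more than 1.5 times (4 of 5 in OB), nor did the mouse as a block (2 of 3 higher in psWAT than pgWAT, without Krt20).

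Leaving out 1 library at a time gave 0 to 1 over the times in STM, 0 to 5 lower late in STM, and 0 over the times or late in psWAT. Leaving out 1 mouse at a time in the organ comparisons gave 25 to 25 higher and 1 to 1 lower in STM than psWAT, 2 to 3 higher and 6 to 6 lower in psWAT than pgWAT, and 7 to 9 higher and 2 to 2 lower in psWAT than iBAT. The 5 libraries that took the 3 lower late to 0 were STM 0 h replicates 1, 2 and 3, 18 h replicate 1 and 22 h replicate 3, and without 22 h replicate 1 it was 5.

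Depth limits the low levels: in psWAT 3 counts are 0.306 to 0.732 CPM, so that lower levels were not detectable. Each time had at most 3 mice. Krt6a, Krt6b and Krt16 share sequence with other genes.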
